A study of Mus musculus with 1 sample.

Results

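The 153 cells described here were defined by transcript counts within 1 single-cell RNA-seq library of mouse bone marrow. A cell was a member when it held at least 5 counts of Cd7 and at least 5 of Irf8, fewer than 5 of Siglech, fewer than 10 of H2-Aa, fewer than 2 of Dntt, and less than 20 Mpo counts per 10000 of its own total. Of 10528 cells that carried 1 hashtag and passed filters (500 or more genes detected, mitochondrial counts no higher than 20%), 153 met this rule, which is 1.45% (exact 95% interval 1.23 to 1.70%). They are called Cd7+Irf8+ cells below. Their working label was dendritic-biased progenitors. Because transcript counts chose them, the levels of the 6 genes of the rule are descriptions, and no test of the cells against others was made.

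Dendritic cells arise in bone marrow from progenitors that also give monocytes, and Irf8 encodes a transcription factor that both branches need. Plasmacytoid dendritic cells, which are known for interferon release, carry the surface lectin Siglec-H (Siglech) and the membrane protein tetherin (Bst2). They depend on the transcription factor E2-2 (Tcf4). Conventional dendritic cells display peptides on MHC class II, of which H2-Aa encodes 1 chain. CD7 (Cd7) is a surface protein best known from T and NK cells. Dntt encodes the DNA polymerase of lymphoid precursors and Mpo the myeloperoxidase of granulocyte-monocyte progenitors, so the rule left out cells with much of either transcript.

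Bone marrow cells of 1 naïve mouse and 1 mouse injected with lipopolysaccharide (LPS, a bacterial cell wall component) were sorted and marked with 5 hashtags, which are DNA barcodes on PE-streptavidin, named A961 to A965. The marked cells were pooled and captured in microwells. The labels name cKit+Lin- progenitors (positive for the receptor cKit and without markers of mature lineages) and GMP-MoPs from both mice, and cMoPs from a naïve mouse. Strain, age, sex and LPS dose are not given in the sources used here, and neither is the population or mouse that each hashtag marked, so no hashtag is given a treatment. Each hashtag was measured once, and every interval given here covers counting error only. The intervals take each count or cell as independent and leave out spread between cells in level and between mice. A963 and A965 marked 15000 loaded cells each, and the other 3 hashtags 100 each.

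The 10528 cells had totals of 8822 to 140994 counts. Members had a median total of 16953 counts (8974 to 65763) and a median of 3268 genes, below the median total of 24308 counts in the 10375 other cells. No cell number was shared between hashtags. Xist, the RNA of X inactivation, had counts in 70 of 73 A963 members and in 3 of 74 A965 members, and Y-linked genes had counts in 1 and 46 of them. Sex, mouse, sorted population and hashtag therefore cannot be told apart. RNA of other cells was present across the wells: after every cell was thinned to 8800 counts, Camp, a neutrophil granule gene, had counts in 87.1% of 464 erythroid cells (at least 100 Hbb-bs counts; median total 40782) and in 90.2% of Cd7+Irf8+ cells. Granule transcripts are not read as expression by the members.

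Cd7+Irf8+ cells carried both large hashtags at similar shares. They were 73 of 4716 A963 cells, or 1.55% (1.22 to 1.94%), and 74 of 5567 A965 cells, or 1.33% (1.05 to 1.67%), a ratio of 0.859 with an interval that includes 1 (0.613 to 1.20). A962 held 3 among 104 cells (2.88%, 0.599 to 8.20%) and A964 held 3 among 73 cells (4.11%, 0.856 to 11.5%). A961 held 0 among 68 cells, which allows a share of up to 4.41% by the level of 3 cells and 5.28% by the exact interval. The small hashtags are thus too shallow to be placed above or below the large ones. The limits of the rule are mostly raw counts, and the median total over all cells was 20430 in A963 and 27205 in A965. These shares, and those of the neighbouring sets below, are therefore not matched for depth.

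3 neighbouring sets were cut from the same library with the same limits on Irf8 and Mpo. The Siglech gate held the 561 cells with at least 5 Siglech counts, whatever their Cd7, Dntt and H2-Aa. The H2-Aa gate held the 188 cells with at least 10 H2-Aa counts and fewer than 5 Siglech counts, whatever their Cd7 and Dntt. The Cd7-low gate held the 1743 cells that met every limit except that they had fewer than 5 Cd7 counts. Median totals were 14219, 18302 and 28425 counts. The Siglech gate was 6.64% of A963 and 4.38% of A965 cells, 1.51-fold more of A963 (1.28 to 1.80). The H2-Aa gate was 1.51% and 2.08%, 1.38-fold more of A965 (1.02 to 1.89). The Cd7-low gate was 15.1% and 16.7% (ratio 1.10, 0.999 to 1.22).

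4 genes that the rule did not use had been proposed as markers with earlier results of these data known. Their high levels in the members are therefore a description. Levels are summed counts per 1000000 (CPM). Upb1, which encodes the last enzyme of pyrimidine breakdown, reached 311 CPM in members. It was at 36.0 CPM in the Cd7-low gate, 256 CPM in the Siglech gate and 108 CPM in the H2-Aa gate. Upb1 separated the members from the Cd7-low cells 8.66-fold (8.01 to 9.35) but from the Siglech gate only 1.22-fold (1.13 to 1.31). Ccnd1, which encodes cyclin D1, stood at 247 CPM in members against 28.1 CPM in the Cd7-low gate, 8.79-fold (8.05 to 9.58), and at 311 CPM in the Siglech gate. Runx2, a transcription factor of bone that is also active in plasmacytoid dendritic cells, had 353 CPM in members and 51.0 CPM in the Cd7-low gate, 6.92-fold (6.45 to 7.41). Bst2 had 1388 and 220 CPM, 6.32-fold (6.10 to 6.54), and 2117 CPM in the Siglech gate. All 4 were thus far above the Cd7-low gate, while Bst2, Runx2 and Ccnd1 were somewhat lower in the members than in the Siglech gate.

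Most single members carried these transcripts. Of the 153 members thinned to 8800 counts, 73.2% had Upb1 (65.5 to 80.0%), 66.7% had Ccnd1, 85.0% had Runx2 and 97.4% had Bst2. In the erythroid cells, which should lack them, the shares were 2.59% for Upb1, 1.08% for Ccnd1, 2.59% for Runx2 and 17.5% for Bst2, so none is at the background level in members. Before thinning, Upb1 counts ran from 0 to 30 with a median of 5, Runx2 counts from 0 to 29 with a median of 6, and Bst2 counts from 0 to 99 with a median of 25. The genes that the rule used had medians of 11 counts for Cd7 (5 to 49) and 35 for Irf8 (5 to 147).

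**Figure D1:**
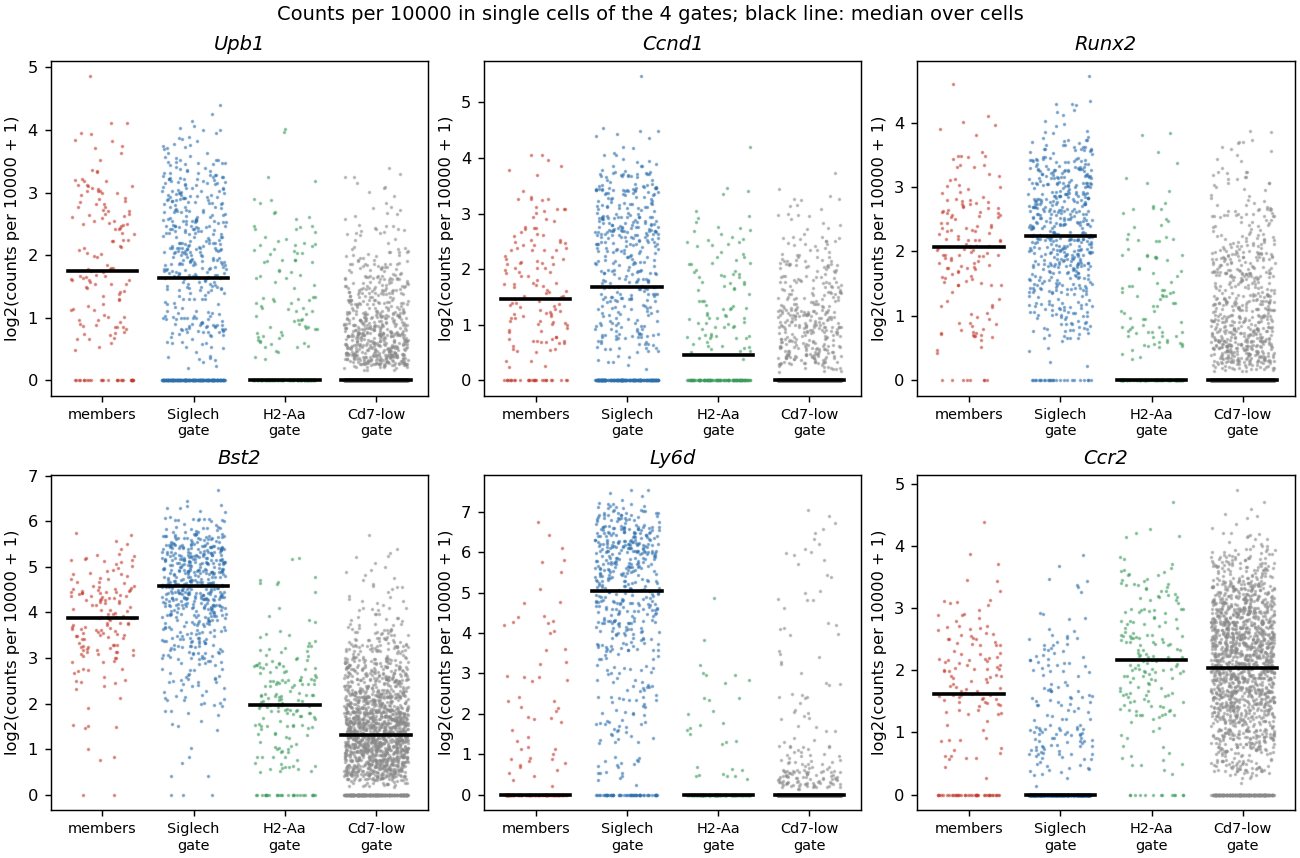
Counts per 10000 of a cell's total, as log2 of the value plus 1, for the cells of the 4 sets (1 panel a gene; each point is a cell and the black line the median over cells). Upb1 has a median of 2.38 per 10000 in the members and of 2.10 in the Siglech gate, and it is at 0 in the median cell of the H2-Aa gate.

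The promoters of 4 of the 6 markers were found in the RefSeq table for GRCm38.p6 (250 bases before to 50 after the start given there). Cd7 and Ccnd1 are only named. Bst2 and Irf8 are shown because both are known interferon-responsive genes, and Runx2 because the hexamer bound by Runx proteins recurs at its own start. 3 motifs, chosen after these sequences were seen, were searched on both strands: GAAANNGAAA (a repeat recognised by interferon regulatory factors), TTCNNNGAA (recognised by STAT factors) and TGTGGT (recognised by Runx factors). Capitals mark the matches. The Bst2 promoter lies at chr8:71537423-71537722 on the minus strand, the Irf8 promoter at chr8:120736108-120736407 on the plus strand, and the Runx2 promoter at chr17:44814578-44814877 on the minus strand.
Bst2: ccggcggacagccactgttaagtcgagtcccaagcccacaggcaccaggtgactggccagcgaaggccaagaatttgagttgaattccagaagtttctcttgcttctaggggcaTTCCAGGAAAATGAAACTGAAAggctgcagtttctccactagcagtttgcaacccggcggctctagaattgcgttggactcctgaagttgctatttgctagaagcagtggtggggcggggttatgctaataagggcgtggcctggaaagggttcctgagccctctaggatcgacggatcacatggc
Irf8: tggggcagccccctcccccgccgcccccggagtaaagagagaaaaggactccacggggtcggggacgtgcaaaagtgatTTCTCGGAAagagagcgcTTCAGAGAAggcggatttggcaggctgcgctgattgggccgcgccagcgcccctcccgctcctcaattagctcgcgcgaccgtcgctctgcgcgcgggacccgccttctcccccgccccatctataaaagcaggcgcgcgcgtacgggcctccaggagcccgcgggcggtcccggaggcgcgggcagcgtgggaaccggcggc
Runx2: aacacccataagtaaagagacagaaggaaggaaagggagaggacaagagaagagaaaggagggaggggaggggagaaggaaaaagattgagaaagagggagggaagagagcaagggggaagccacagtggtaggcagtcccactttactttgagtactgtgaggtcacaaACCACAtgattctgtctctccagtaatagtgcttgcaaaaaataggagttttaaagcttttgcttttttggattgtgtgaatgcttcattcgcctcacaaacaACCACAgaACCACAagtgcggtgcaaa

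In the Bst2 promoter GAAANNGAAA matched at bases 121 to 130 and 127 to 136, 2 matches that overlap each other, and TTCNNNGAA matched at bases 115 to 123, which overlaps the first of them. The Irf8 promoter held TTCNNNGAA at bases 80 to 88 and 98 to 106. In the Runx2 promoter TGTGGT matched on the opposite strand at bases 171 to 176, 274 to 279 and 282 to 287. The Upb1 promoter (chr10:75406661-75406960, plus strand) held none of these letters. In the GENCODE positions Upb1 starts earlier, at chr10:75401115, so this promoter lies inside that span, and the earlier start was not searched. Of 32851 promoters in the table, 3.44% held GAAANNGAAA, 8.30% held TTCNNNGAA and 16.8% held TGTGGT. A match is a description, not a site or a cause.

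Set against the Cd7-low gate, the members had more transcript of several dendritic genes and less of several granulocyte and monocyte genes. A gene was counted as higher or lower when its CPM ratio, with 10 CPM added to both, was at least 2, among genes with at least 10 CPM on either side. Of 8236 genes, 171 were higher (2.08%) and 185 lower (2.25%) in the members, and the median log2 ratio was 0.03. The rule divided these sets on Cd7, so the counts describe the sets and test nothing. Other genes of the rule differed too, with Irf8 at 1890 CPM in members and 754 CPM in the Cd7-low gate. Mpo was at 106.5 and 608 CPM. Which differences go with Cd7 and which with Irf8 or Mpo was not tested. The median total was 16953 counts in members and 28425 in the Cd7-low gate.

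Of 12 plasmacytoid dendritic genes measured, 7 were higher and 1 (Ly6c2, which monocytes also carry) was lower, with a median log2 ratio of 2.04. In this and the later comparisons that list also holds the proposed markers Bst2 and Runx2. Spib, a transcription factor of plasmacytoid cells, had 52.1 CPM against 2.15 CPM, a 24.3-fold difference (19.1 to 31.0). Tcf4 stood at 122 and 28.2 CPM (4.31-fold, 3.84 to 4.82). Bcl11a, a transcription factor upstream of Tcf4 in mouse, stood at 143 and 34.7 CPM (4.13-fold). Ly6d, a surface protein of lymphoid and plasmacytoid precursors, was 9.02-fold higher (8.40 to 9.68), at 374 CPM against 41.4 CPM. Spib, Tcf4 and Bcl11a were therefore all above the Cd7-low level in the members.

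Among 10 conventional dendritic genes, 4 were higher and 1 (Naaa, a lipid hydrolase of conventional cells) was lower, with a median log2 ratio of 0.41. Itgax, which encodes the integrin CD11c, had 76.5 CPM against 4.57 CPM (16.8-fold, 14.0 to 20.1). Clec9a, a receptor for dead cells known from dendritic precursors, had 81.8 CPM against 9.29 CPM (8.81-fold, 7.55 to 10.2). After thinning, Clec9a had counts in 35.9% of members and 6.14% of Cd7-low cells, and Itgax in 36.6% and 3.39%. Both transcripts were in under 0.5% of erythroid cells, at 0.216% and 0.431%. Flt3, the receptor for the main growth factor of dendritic progenitors, was at 75.2 CPM and 20.1 CPM (3.74-fold, 3.24 to 4.31).

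Several genes outside the dendritic lists followed the markers. Gm34680, a long noncoding RNA at chr16:32550211-32553708 on the plus strand, inside the span of Zdhhc19 and 55212 bases before Tfrc, had 717 CPM in members. It was at 48.5 CPM in the Cd7-low gate (14.8-fold, 13.9 to 15.6) and at 756 CPM in the Siglech gate. Zdhhc19 lies on the same strand, so reads of the 2 genes may be hard to tell apart where they overlap. Tfrc, the transferrin receptor gene, stood at 129 and 29.5 CPM (4.37-fold). Cd300c, a receptor of myeloid cells, was 11.7-fold higher (10.3 to 13.2; 136 and 11.6 CPM). Kmo, an enzyme of tryptophan breakdown, was 6.87-fold higher (104 and 15.1 CPM). Klrd1, the NK receptor subunit CD94, was 9.57-fold higher (8.09 to 11.3), and its CPM of 70.1 in members lay below the 122 of the Siglech gate. Like the 4 markers, these genes were also abundant in Siglech-expressing cells.

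Genes lower in members than in the Cd7-low gate included some of monocytes and granulocytes. Of 11 monocyte genes, 4 were lower and none higher, and of 12 neutrophil and granulocyte-monocyte progenitor genes, 5 were lower and none higher. Lyz2, the lysozyme of phagocytes, had 701 CPM against 6040 CPM and was 8.62-fold lower (8.26 to 8.99). Elane, neutrophil elastase, had 153 CPM against 1029 CPM (6.74-fold lower, 6.17 to 7.39), and Fcgr3, an antibody receptor, 16.4 CPM against 156 CPM (9.52-fold lower, 7.25 to 12.8). F13a1, a clotting factor chain of monocytes, was 5.72-fold lower and Ly6c2, the monocyte antigen, 2.42-fold lower (2381 and 5752 CPM). Ccr2, the chemokine receptor of monocytes, differed little, at 257 and 375 CPM. The summed neutrophil list was 11510 CPM in members and 19102 CPM in the Cd7-low gate, and how much of either was RNA from other cells was not tested.

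The levels moved with Cd7 across the limit of the rule. With 0, 1 to 2, and 3 to 4 Cd7 counts in the Cd7-low gate, and then 5 to 6 and at least 7 in the members, Upb1 stood at 31.9, 66.8, 130, 243 and 331 CPM. Bst2 stood at 189, 464, 904, 1021 and 1495 CPM in the same order. Lyz2 stood at 6348, 2875, 943, 1262 and 538 CPM. The 54 cells with 3 or 4 Cd7 counts therefore lay between the 1574 cells with 0 counts and the members in summed Upb1 and Bst2. These are sums over cells, and how single cells spread within each step was not tested. Median totals fell along the same steps, from 29136 to 22412, 19260, 18454 and 16555 counts. The 54 cells had more Ly6d, at 708 CPM, than the 31 members with 5 or 6 Cd7 counts, at 224 CPM.

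Against the Siglech gate, the members had less of many plasmacytoid genes and more of several monocyte genes. Of 8496 genes, 58 were higher (0.683%) and 140 lower (1.65%) in the members, with a median log2 ratio of -0.07. Of 16 plasmacytoid genes, 10 were lower and none higher, with a median of -1.22, and of 9 monocyte genes, 5 were higher and none lower, with a median of 1.27. Siglech itself, on which the sets were divided, was at 59.7 and 877 CPM. Only the members had to meet the limits on Dntt and H2-Aa. Dntt was at 1.26 CPM in members and 186 CPM in the Siglech gate, and H2-Aa at 17.4 and 219 CPM.

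Ly6d was the gene with the largest deficit in the members by the ranking used, 373.5 CPM against 3462 CPM, 9.27-fold lower (8.75 to 9.83). Cox6a2, a subunit of cytochrome c oxidase that is known from plasmacytoid cells in mouse, had 180 CPM against 1151 CPM (6.39-fold lower, 5.87 to 6.96). Il7r, the receptor for a lymphoid growth factor, had 8.85 CPM against 142 CPM and was 16.1-fold lower (11.1 to 24.3). Ccr9, the receptor that guides plasmacytoid cells to the gut, was 13.2-fold lower (8.93 to 20.2). Tcf4 and Spib were 2.11-fold and 3.21-fold lower, the first falling under the 2-fold mark under 6 alternatives, such as 50 CPM added or median-of-ratios scaling. Ly6d, Cox6a2, Il7r and Ccr9 thus separated the sets further than the regulators Tcf4 and Spib did. How much the limits on Dntt and H2-Aa, set for the members only, add to these differences was not tested.

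S100a4, a calcium-binding protein of motile myeloid cells, was 4.23-fold higher in members (3.98 to 4.50; 756 and 179 CPM). Lgals3, which encodes galectin-3, was 3.89-fold higher (3.63 to 4.16; 604 and 155 CPM) and Ccr2 was 3.76-fold higher (3.39 to 4.16; 257 and 68.4 CPM). After thinning, Ccr2 had counts in 64.1% of members, 20.7% of the Siglech gate and 4.74% of erythroid cells. Klf4, a transcription factor of monocytes, was 3.35-fold higher (128 and 38.1 CPM), Csf1r, the receptor for the macrophage growth factor, 2.80-fold (103 and 36.9 CPM), and Irf5 2.43-fold (76.8 and 31.7 CPM). Csf1r and Irf5 fell under the 2-fold mark with 50 CPM added. Irf5 did so too with at least 10 counts of Cd7 and Irf8, and with the rule on thinned counts. Cst3, the cystatin gene high in dendritic cells, was 2.31-fold higher (4103 and 1775 CPM), and Spi1, the myeloid transcription factor PU.1, 2.33-fold (375 and 161 CPM). S100a4, Lgals3, Ccr2, Klf4, Cst3 and Spi1 were therefore above the Siglech gate in these cells.

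Against the H2-Aa gate the members had more of the plasmacytoid genes and less of the conventional dendritic ones. Of 8293 genes, 73 were higher (0.88%) and 130 lower (1.57%), with a median log2 ratio of 0.05. 9 of 12 plasmacytoid genes were higher and none lower, while 7 of 15 conventional dendritic genes were lower and 1 higher. Bst2 was 3.18-fold higher in members (3.0 to 3.36), Runx2 3.25-fold (2.90 to 3.65), Upb1 2.89-fold (2.57 to 3.26) and Tcf4 2.37-fold (1.99 to 2.83). Ly6c2 was 2.74-fold higher, at 2381 against 870 CPM. The globin genes were also higher, a difference that 1 cell decides: 93.3% of the Hba-a1 counts of all members lay in it.

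The MHC class II genes, among which the gate was set, were far lower in the members. Of 9 class II genes besides H2-Aa, 7 were lower. H2-Ab1, the partner chain, had 32.5 CPM against 3585 CPM (110-fold lower, 90.8 to 135), and Cd74, the invariant chain that guards class II in transit, had 123 CPM against 5873 CPM (47.8-fold lower, 43.2 to 53.0). Batf3, which conventional cells of the first kind require, was 21.3-fold lower (14.8 to 31.8; 9.48 and 202 CPM), and Id2, an inhibitor of E proteins such as E2-2, was 15.5-fold lower (13.5 to 17.8; 68.6 and 1062 CPM). H2-DMa, which loads peptide onto class II, differed little, at 448 CPM against 565 CPM, and was 2.49-fold higher than in the Cd7-low gate (2.36 to 2.64). Clec9a was also close in both, at 81.8 and 77.0 CPM (ratio 1.06, 0.896 to 1.26). H2-DMb1, which encodes the partner chain of H2-DMa, was 2.78-fold lower in members than in the H2-Aa gate (2.53 to 3.06; 177 and 491 CPM).

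**Figure D2:**
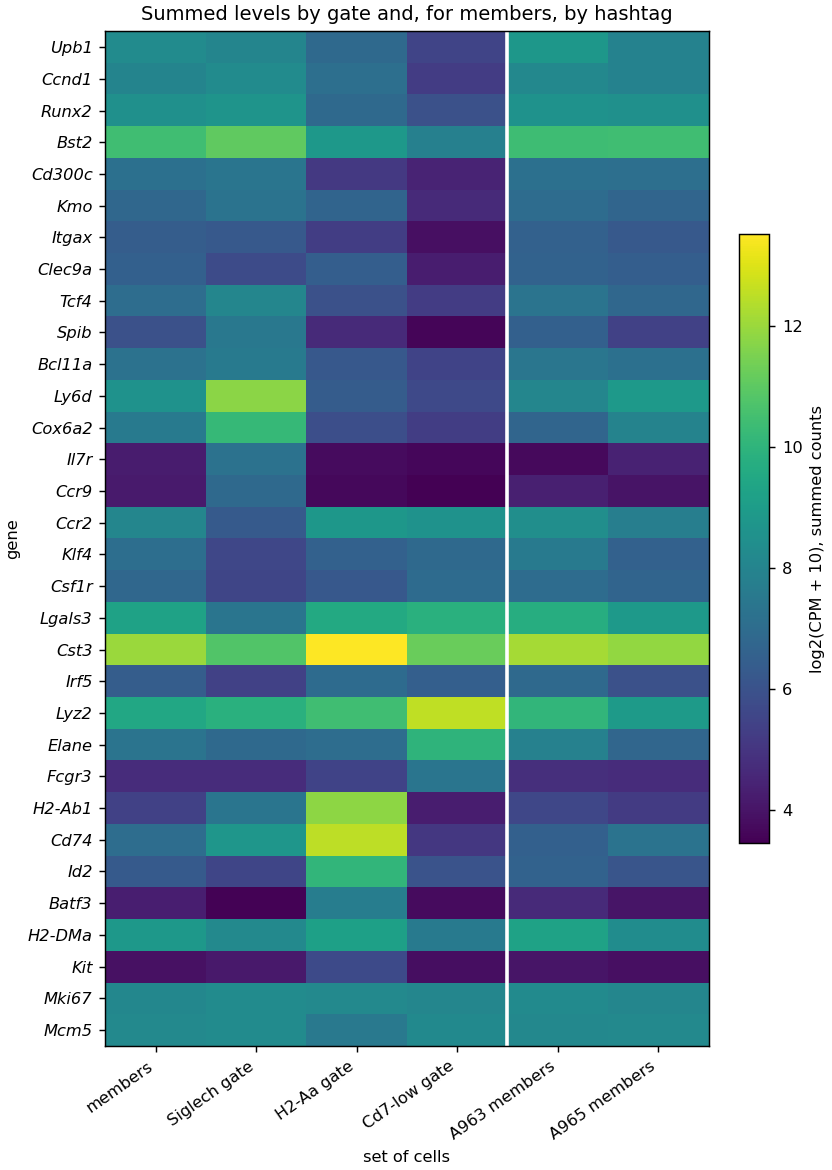
Summed level of each gene as log2 of CPM plus 10 in the members, the Siglech gate, the H2-Aa gate and the Cd7-low gate, and for members of A963 and A965 apart. In members Upb1 is at 311 CPM and Lyz2 at 701 CPM, and H2-Ab1, at 32.5 CPM in members, is brightest in the H2-Aa gate (3585 CPM).

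Taken over all 10375 other cells, 312 of 8420 genes were higher in members (3.71%) and 335 lower (3.98%). Upb1 was 15.8-fold higher (14.8 to 16.9), Cd300c 15.2-fold, Ccnd1 10.5-fold, Runx2 9.04-fold and Bst2 7.44-fold. Rnase6, an antimicrobial ribonuclease, was 6.61-fold higher, at 476 against 72.0 CPM, and Itgb7, an integrin chain for gut homing, 6.47-fold, at 318 against 49.1 CPM. The lower genes included 12 of 13 neutrophil and granulocyte-monocyte progenitor genes, such as Elane, 14.8-fold lower (13.5 to 16.2). These other cells are a mixture of all populations in the library.

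The members were checked against lineage markers. Against all other cells, 8 of 12 plasmacytoid genes were higher and none lower (median log2 ratio 1.44). Of 10 conventional dendritic genes, 5 were higher and 1 lower (0.54), and of 10 monocyte genes, 5 were higher and 1 lower (1.10). Several monocyte genes thus stood above the other cells, as several dendritic ones did. Others did not, with Lyz2 at 701 and 5060 CPM, F13a1 at 81.8 and 163 CPM and Fn1 at 6.64 and 17.4 CPM. The whole monocyte list summed to 3408 CPM in members and 6204 CPM in the other cells. Kit, whose protein was used in the sort that the labels name, was at 5.06 CPM in members and 18.2 CPM in the other cells, with counts in 6.54% of members. Cd34, a progenitor surface gene, was at 28.7 CPM and 55.3 CPM. Among stem and multipotent genes, Mecom, Procr and Mycn had 0 counts. Among lymphoid and B genes, Rag1, Cd79a and Igll1 had 0 counts, and among NK, ILC and T genes, Cd3e, Tcf7, Zbtb16, Klrb1b and Klrb1c had 0 counts. All of these genes with 0 counts were also low in the other cells, from 0.0302 CPM (Cd3e) to 2.86 CPM (Cd79a). Their absence therefore says little about lineage. Other genes known from lymphoid cells were higher in members than in all other cells, namely Ighm, the IgM heavy chain (482 and 161 CPM), Klrd1 (70.1 and 8.81 CPM) and Thy1, a T cell surface gene (23.1 and 3.65 CPM). The label dendritic thus rests on transcripts picked from the lists, namely Itgax, Flt3, Clec9a, Bst2, Tcf4 and Spib. Other genes of these lists did not stand above the other cells. Id2 was at 68.6 and 104 CPM, Naaa at 31.6 and 32.0 CPM, and Tlr7 at 4.42 and 4.69 CPM. With several monocyte genes raised as well, dendritic remains a working label. The word progenitor rests on the sort and on division, since Kit transcript was low and what the cells become was not measured.

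Division genes were near the level of the Cd7-low and Siglech gates, while S-phase genes stood somewhat above the H2-Aa gate. None of 12 S-phase and none of 12 G2/M genes was 2-fold higher or lower against the Cd7-low, Siglech or H2-Aa gate. Against the H2-Aa gate the median log2 ratio was 0.51 for the S-phase genes, 0.04 for the G2/M genes and 0.05 for all genes. The S-phase genes summed to 1902 CPM in members and 1276 CPM in that gate. Mki67, which marks dividing cells, had 270 CPM in members and 258, 310 and 280 CPM in the Cd7-low, Siglech and H2-Aa gates. Mcm5, a subunit of the replication helicase, had 279, 287, 304 and 175 CPM in the same order. The 8.79-fold difference in Ccnd1 from the Cd7-low gate went with 2.17-fold more Ccnd2 (1.90 to 2.47) and similar Ccnd3, at 235 and 227 CPM. Erythroid cells had Mki67 counts in 90.1% of thinned cells and members in 64.7%.

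Of 22 sensing genes, 10 could be compared with the Siglech gate, where none was higher in members and 1 was lower (median log2 ratio 0.07). Of 11 interferon-stimulated genes measured against the Cd7-low gate, 1 was higher (Bst2) and 1 lower (Zbp1, a nucleic acid sensor), and Ifit1, Ifit3, Rsad2 and Rtp4 had 0 counts in members. In the Cd7-low gate Ifit1, Ifit3, Rsad2 and Rtp4 were also low, at 0.632, 1.48, 1.46 and 4.31 CPM. Tlr7, an RNA sensor of mature plasmacytoid cells, was at 4.42 CPM in members and 25 CPM in the Siglech gate, and Tlr9, a DNA sensor, at 2.53 and 7.77 CPM, the former from 8 counts. Unc93b1, which carries these receptors to endosomes, was at 290 CPM in members, against 328 CPM in the Siglech gate and 215 CPM in the Cd7-low gate. Sting1, a sensor of cyclic dinucleotides, had 156 CPM in members and 73.2 CPM in the Cd7-low gate (2.14-fold, 1.94 to 2.35).

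Over the members of all hashtags together, levels varied along an axis from Ly6d to Ccr2. Over the 153 members thinned to 8800 counts, Ly6d and Cox6a2 went together (Spearman's rho 0.51), as did Ccr2 with Lgals3 (0.57), Lgals3 with Crip1 (0.73) and Cst3 with Crip1 (0.64). Ly6d and Ccr2 went against each other (-0.47), as did Cox6a2 and Cst3 (-0.49). These values are descriptions over cells of 1 library that share capture and background RNA, and no p-value is given. Of the 153, 32 had counts of Ly6d without Ccr2, 84 had Ccr2 without Ly6d, 14 had both and 23 neither. Bst2 had rho of -0.03 with Ccr2, 0.20 with Ly6d and 0.25 with Crip1, and its higher values were with Spib (0.41) and Cd7 (0.40).

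**Figure D3:**
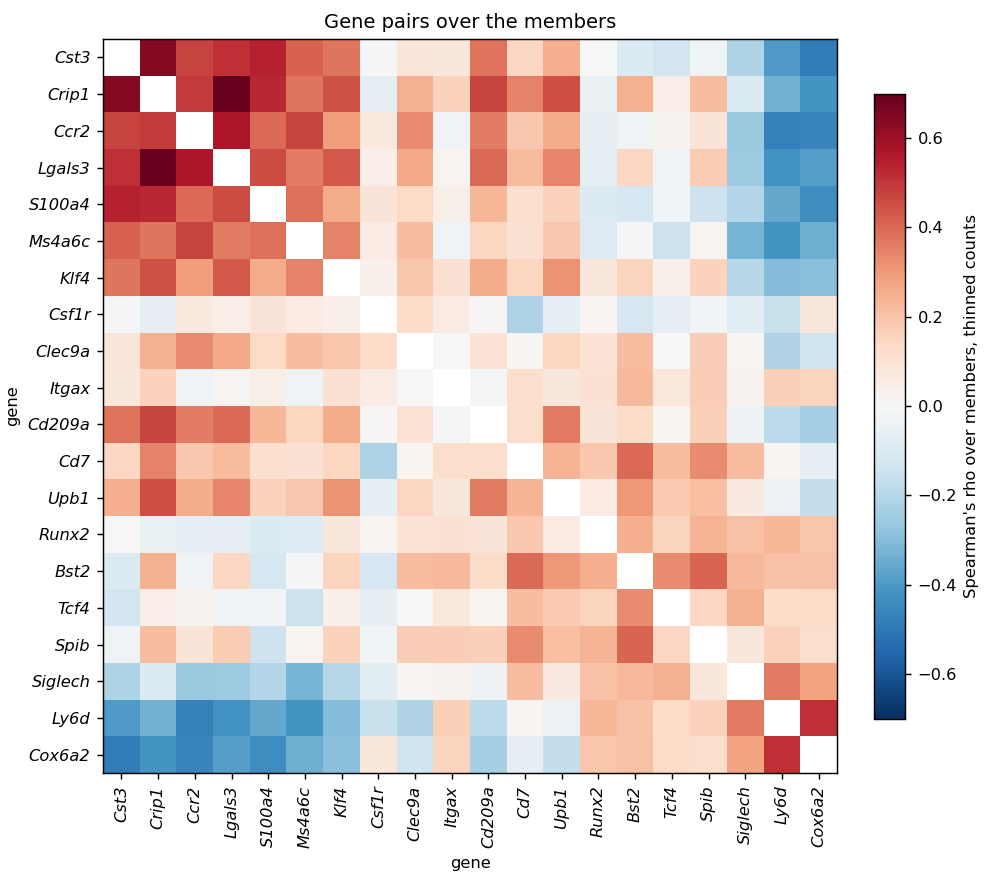
Spearman's rho between pairs of genes over the 153 members, each thinned to 8800 counts (red above 0, blue below 0). Cst3, Crip1, Ccr2 and Lgals3 form a block of positive values, up to 0.73 for Lgals3 with Crip1, that is negative against Ly6d and Cox6a2, down to -0.49 for Cst3 with Cox6a2.

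The genes of the rule followed different partners. Among 3058 genes with counts in at least 25% of thinned members, the highest rho with Cd7 belonged to Bst2 (0.40), Dazap1, Mpeg1 (perforin-2 of phagocytes, 0.37), Crip1 (0.35) and Ctss, with Spib at 0.33. The lowest were Dtymk, which makes a DNA precursor (-0.39), the replication factor gene Tipin (-0.38), Atp5a1 and Pcna, the sliding clamp of replication (-0.34). Siglech, at up to 4 counts in members, was highest with Ly6d (0.36) and Ctsb, and lowest with Wls (-0.36) and Ms4a6c (-0.33). H2-Aa, at up to 9 counts, was highest with Cd74 (0.49). All of these values were below 0.5 in size, and weak values in sparse counts are given as description only. The rule also cut the range of these 3 genes on raw counts. Member totals ran from 8974 to 65763 counts, and thinning removes more of the Cd7 counts of a deeper member. The rho with Cd7 is thus tied to depth by the rule, and how much this adds was not tested.

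Low Siglech counts already went with large differences inside the set. The 81 members with 1 to 4 Siglech counts had 681 CPM of Ly6d, against 54.7 CPM in the 72 with 0. Cox6a2 was at 311 and 45 CPM, Tcf4 at 168 and 74.0 CPM, and Ccr2 at 195 and 322 CPM. Upb1 was close in both, at 318 and 304 CPM. The members without Siglech therefore held Upb1 at a similar level with much less Ly6d and Cox6a2. Their median totals were 16474 and 18031 counts, so the cells without Siglech were not the shallower ones.

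Near the other limits, 230 cells failed the Siglech limit alone (57 of them with 5 to 7 counts, while 36 members had 3 or 4), 56 failed the H2-Aa limit alone and 13 the Irf8 limit alone. The 19 cells that failed the Dntt limit alone came mostly from A965 (17, with 2 from A963). They had 1727 CPM of Ly6d, 1112 of Cox6a2, 347 of Ly6a and 43.7 of Il7r, but 26.7 CPM of Upb1. No cell failed the Mpo limit alone. Cells excluded for Dntt were thus unlike the members in Upb1 and Ly6d, whereas the cells with 3 or 4 Cd7 counts, at 130 CPM, lay nearer to them in Upb1.

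Nearest neighbours were found from 30 principal components of 2000 variable genes, with the rule's genes, sex-linked genes and mitochondrial genes left out. Of the 15 nearest cells of each member, 36.3% were members, which make up 1.45% of all cells. A further 28.2% lay in the Siglech gate (5.33% of all cells), 25.7% in the Cd7-low gate (16.6%), 3.6% in the H2-Aa gate (1.79%) and 6.3% in none (74.9%). Each of the 3 gates thus held a larger share of the neighbours than of all cells, and the cells in none of the sets a smaller one. In 47 members at least 8 of the 15 neighbours were members, and 15 members had no member neighbour. With the rule's genes included the share of member neighbours was 37.9%, and with 30 neighbours 34.2%.

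**Figure D4:**
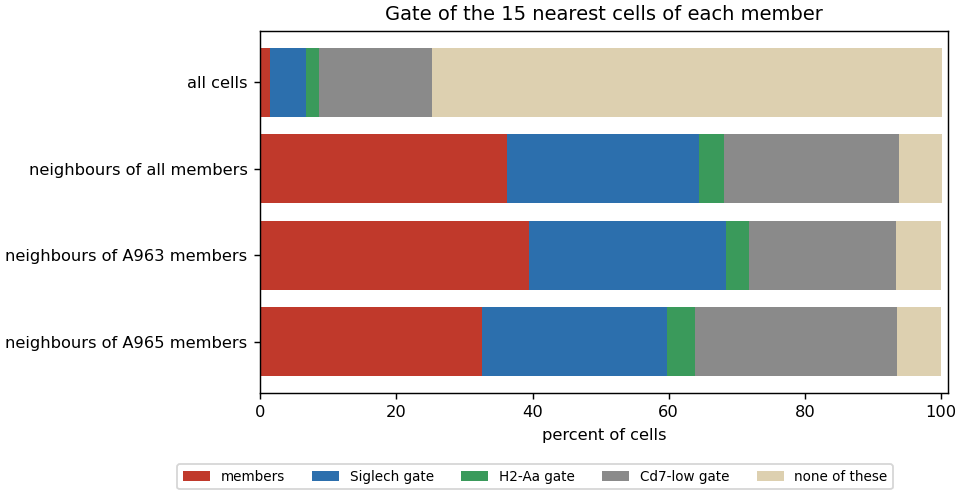
Percent of cells in each set, over all cells (top bar) and over the 15 nearest cells of all members, of A963 members and of A965 members. Members are 1.45% of all cells and 36.3% of the neighbours of members, 39.5% for A963 and 32.6% for A965.

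Members of A965 and A963 differed in a limited number of genes. Of 8486 genes, 60 were higher in A965 (0.707%) and 131 lower (1.54%), with a median log2 ratio of -0.10. Scaled by the median of ratios the counts were 91 higher and 100 lower, so the excess of lower genes moves with the scaling, which shifts the median of all genes by 0.10 on the log2 scale. In 24 of the 191 genes at least 50% of all member counts came from 1 cell. A963 members had a median total of 14958 counts and A965 members 21768. With 1 capture and no map from hashtag to mouse, these are differences between 73 and 74 cells, and neither their source nor their error between mice is known. Transcripts of other cell types moved along: the 13 neutrophil genes summed to 13971 CPM in A965 and 8726 CPM in A963 members, and the 10 erythroid genes to 284 and 3244 CPM, with most of the latter in 1 cell. Their part in the differences was not tested.

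Ly6a (the gene of Sca-1, a surface antigen of stem cells) was at 145 CPM in A965 members and 29.7 CPM in A963 members, 4.87-fold higher (3.46 to 7.05). It had counts in 42 of 74 and 15 of 73 cells. Thinned, the shares were 43.2% (31.8 to 55.3%) and 13.7% (6.77 to 23.8%), and 1.94% in erythroid cells. Ifitm1, an interferon-induced membrane protein gene with close relatives nearby, had counts in 42 and 8 cells, at 67.9 CPM in A963, and 1 A963 cell held 79.3% of the A963 counts. Zfas1, a noncoding RNA, was 2.82-fold higher in A965 (2.37 to 3.37; 359 and 127 CPM). Cox6a2 was 2.53-fold higher (241 and 95.2 CPM), which fell under 2-fold when the rule was applied to thinned counts. Thinned, Ifitm1 was in 47.3% of A965 members (35.6 to 59.3%) and 8.22% of A963 members (3.08 to 17.0%). Ly6a and Ifitm1 were thus found in more of the A965 members, beyond the counting intervals.

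Cd209a, a DC-SIGN lectin gene of dendritic cells, showed the opposite pattern. It was at 15.8 CPM in A965 and 169 CPM in A963 members, 10.7-fold lower in A965 (7.17 to 16.4), with counts in 8 of 74 and 32 of 73 cells. Thinned, the shares were 8.11% (3.03 to 16.8%) and 39.7% (28.4 to 51.9%), against 0.431% in erythroid cells. Its relative Cd209d had 1.69 and 50 CPM, and reads may be shared between such relatives. Crip1, a LIM-domain protein gene, was at 2077 CPM in A963 and 2.15-fold lower in A965. This difference was under 2-fold with median-of-ratios scaling, with the rule on thinned counts, and with 0 Siglech and under 3 H2-Aa counts. Spib was lower 2.57-fold (32.2 and 82.7 CPM) and Tapbp, which loads class I molecules, 3.05-fold (38.4 and 117 CPM). Klf4 was at 86.4 and 180 CPM and Upb1 at 229 and 425 CPM, 1.86-fold lower (1.63 to 2.12). Bst2, at 1381 and 1324 CPM, Runx2, at 352 and 373 CPM, and Clec9a, at 78.5 and 89.0 CPM, differed little. A963 members thus had more of the Ccr2-side gene Crip1 and of Cd209a, with similar Bst2 and Runx2.

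The same hashtag differences were looked at in the other 3 sets. Ly6a was higher in A965 there too, 5.75-fold in the Siglech gate, 3.47-fold in the H2-Aa gate and 2.16-fold in the Cd7-low gate. Ifitm1 was higher by 5.93-fold, 6.65-fold and 7.30-fold. Cd209a was lower in A965 by 1.44-fold in the Siglech gate, 9.64-fold in the H2-Aa gate and 29.3-fold in the Cd7-low gate, where its levels were 0.478 and 14.0 CPM. Upb1 was lower by 1.12-fold, 1.62-fold and 2.56-fold. Cox6a2 was lower, not higher, in A965 in each of the other sets, by 1.12-fold, 2.84-fold and 1.25-fold. Ly6a, Ifitm1, Cd209a and Upb1 therefore went the same way in all 4 sets, whereas Cox6a2 did not. The differences between sets were not tested.

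**Figure D5:**
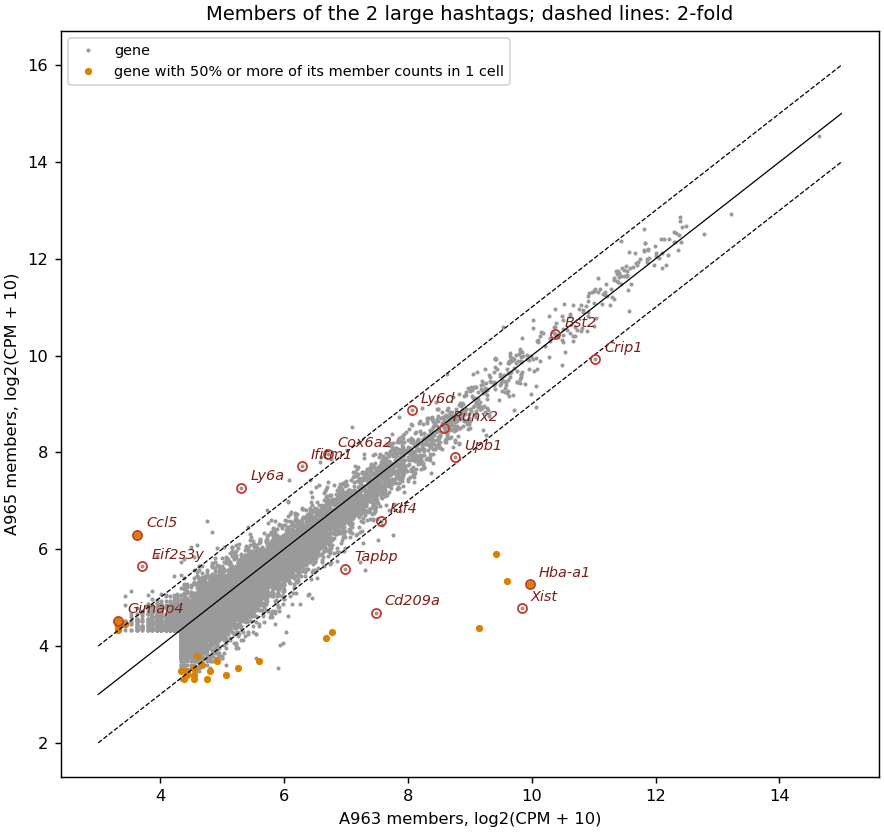
Level of each of 8486 genes in A963 members (x axis) and A965 members (y axis), as log2 of CPM plus 10; dashed lines mark 2-fold, and orange marks genes with at least 50% of their member counts in 1 cell. Cd209a lies below the lower line at 169 CPM in A963 and 15.8 CPM in A965, and Ly6a above the upper line at 29.7 and 145 CPM.

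The neighbours of members also differed by hashtag. Cells carrying A963 were 58.9% of the neighbours of A963 members and 33.3% of those of A965 members, and 44.8% of all cells, although Xist and Y-linked genes had been left out. Cd7-low cells were 21.6% of the neighbours for A963 and 29.8% for A965. The 6 members of A962 and A964 were too few to summarise: Cd7 ran from 10 to 34 counts in them, Bst2 from 20 to 75, and Runx2 from 0 to 9.

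5 members held at least 100 counts of Hba-a1, Camp or Ccl5, genes of other cell types. Other granulocyte genes were not part of this search: 1 A963 member outside the 5 held 123 counts of Elane. An A963 member with a total of 55815 counts had 1236 of Hba-a1, a globin gene, and 22 of Klf1, the erythroid transcription factor. An A965 member with a total of 11000 had 117 counts of Ccl5, 23 of Gimap4, 22 of Klra1 and 13 of Il2rb, all known from T and NK cells, with 0 of Runx2 and of Upb1. 3 others held 749, 1040 and 1010 counts of Camp, and the last of them, an A965 cell, also had 28 of Xist. The doublet caller Scrublet called 259 of the 10528 cells (2.46%) and 5 members, of which 4 are among these cells. All are kept in the values above. Without these 5 cells, 388 genes in place of 356 were 2-fold apart from the Cd7-low gate.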

How the data were processed

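The library was made with the BD Rhapsody microwell system and the TAS-Seq amplification, per the labels' protocols. Deposited values are whole-number counts (25661 genes by 10731 cells); aligner, annotation and counting tool are not given in the sources used here, and 6 columns of no hashtag were not used. GRCm38, Seurat 4.2.0 and R 4.2.1 are named in the submitters' processing notes. Values of 2 were 54.7% as frequent as values of 1, so the counts may include repeated reads of 1 molecule. The filter removed 7 of 10535 cells; the 190 cells the authors named doublets entered no comparison.

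Counts were summed over the cells of a set and scaled to CPM. Ratios have exact conditional 95% intervals and shares Clopper-Pearson intervals, both covering counting error only. If the counts include repeated reads of 1 molecule, the intervals of CPM ratios are too narrow even for counting error. With 1 library, no p-value was computed. Cells were thinned to 8800 counts for shares and correlations. Neighbours used scanpy 1.11.5 and scikit-learn 1.9.0, with numpy 2.4.6 and scipy 1.17.1. Doublets were called with Scrublet and kept. Ratio steps were tested on simulated data. Of the symbols, 24749 (96.4%) matched GENCODE M21 (GRCm38), which gave gene positions.

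The members, gene lists and neighbouring sets were chosen with earlier results of these data known. Genes named were among the 15 largest ratios in each direction that reached 100 CPM and were detected in 25% or more of the cells of the higher set, leaving out the rule's genes, mitochondrial, ribosomal, Gm-number and Rik names, plus list members; which of these to print, and Gm34680, Cd209d, Tapbp and Zfas1 among others, was chosen after their values were seen.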

Additional observations from a re-analysis of the deposited data

Results flagged for a closer look

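Of the 190 cells that the authors had named doublets from their hashtags, 5 met the rule for Cd7+Irf8+ cells, which is 2.63% (exact interval 0.860 to 6.03%). The level that a count of 0 would allow in 190 cells is 1.58%, and the share among cells with 1 hashtag was 1.45% (1.23 to 1.70%). It is given because these cells entered no comparison. The interval includes the share among cells with 1 hashtag.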

How the results depend on the processing

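The share of members moved with the limits on counts. With at least 3 counts of Cd7 and Irf8 it was 2.25% of A963, 1.80% of A965 and 2.01% of all cells, with at least 10 counts 0.827%, 0.790% and 0.845%, and with 0 Siglech and under 3 H2-Aa counts 0.763%, 0.557% and 0.655%. The A965 to A963 ratio stayed within its interval in each of these. Counts of genes at least 2-fold apart followed the CPM added and the minimum. With 1 CPM added they were 724 (Cd7-low gate), 515 (Siglech gate), 559 (H2-Aa gate), 1197 (all other cells) and 905 (A965 against A963). With 50 CPM added they were 92, 42, 46, 188 and 21, and with a minimum of 50 CPM 203, 103, 106, 361 and 60. The A965 against A963 count was 482 on thinned counts, 616 with at least 10 counts of Cd7 and Irf8, and 702 with 0 Siglech and under 3 H2-Aa counts, which left the Siglech comparison at 333. The last 2 settings leave fewer cells. For the other settings the cause was not tested. Among 60 gene and comparison pairs under all alternatives, 5 of 720 values reversed. Ly6d against the H2-Aa gate went from a log2 ratio of 2.20 to -0.39 with 0 Siglech and under 3 H2-Aa counts. Hba-a1 in A965 against A963 went from -4.69 to 0.15 without Scrublet calls, 1.58 with the rule on thinned counts and 0.12 without the 5 members with 100 or more counts of Hba-a1, Camp or Ccl5, an alternative chosen after seeing the data. Mgst3 went from -1.73 to 0.37 with the rule on thinned counts. Of 57 pairs at least 2-fold apart, 12 fell under that mark in some alternative, among them Irf5, Csf1r and Tcf4 against the Siglech gate, Spib against the Cd7-low gate, and Ifitm1, Cox6a2, Crip1, Tapbp and Zfas1 between the hashtags. No paired analysis was possible because there was 1 library and no replicate. Members had fewer counts than the Cd7-low cells, so a count of 0 in a member may be absence or missed sampling.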
